A study of Mus musculus with 8 samples.

Results

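Of 10683 barcodes kept in the libraries C2 and C1, 97 met a rule for transcripts of salivary epithelium, and 4 of these were led by antibody genes. They were chosen by their counts of unique molecular identifiers (UMIs, each standing for 1 captured transcript): at least 3 UMIs of Epcam, Krt8 and Krt18 together, no UMI of Ptprc, Cd3d, Cd3e or Cd3g, and at most 4 UMIs of C1qa, C1qb and C1qc, among barcodes that reached 500 UMIs and 300 detected genes with a mitochondrial share of 10% or less. C2 held 48 of 5067 kept barcodes (0.947%, 95% interval 0.699 to 1.25%), and C1 held 49 of 5616 (0.873%, 0.646 to 1.15%). The series as a whole kept 25172 barcodes. Epcam is an adhesion protein of epithelia, Krt8 and Krt18 are the keratins of simple epithelium, Ptprc encodes CD45, the Cd3 genes encode the T cell receptor complex and the C1q genes are complement genes of macrophages. Since these genes chose the barcodes, their levels are given as a description.

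The study compared SS mice with control mice, 4 of each and about 12 weeks old, in the submandibular gland, a major salivary gland, and in the lymph nodes that drain it. Per the labels' protocols the glands were minced and digested with collagenase, the nodes were only triturated, and CD45-positive cells of both were sorted with an antibody to CD45.2. The labels give neither the meaning of SS nor a strain or allele, and list 1 expression library and 1 receptor library for each of SS gland, SS node, control gland and control node. The files name the 4 expression libraries C1 to C4 without tying any of them to a genotype or a tissue, so each value below belongs to a library, no comparison of SS with control is made, and no test is possible with 1 library each. Intervals are exact 95% intervals for counting error only, which leaves out the spread between mice, and UMIs of 1 barcode are not independent draws of a population of cells.

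Salivary acini secrete the fluid and most of the proteins of saliva, and their water passes through the channel Aqp5. Ducts then change the salt content of that fluid. In the mouse submandibular gland the granular duct cells also store kallikreins and growth factors such as Egf. Basal cells with Krt5 and Krt14 and contractile myoepithelial cells with Acta2 lie beneath the secretory layer.

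The epithelial barcodes spanned a wide range of depth, from 584 to 109349 UMIs with a median of 2802 in C2, and from 653 to 143408 with a median of 3459 in C1. T cell barcodes, defined as those with at least 3 Cd3 UMIs and none of Epcam, Krt8 or Krt18, had medians of 4952 UMIs in C2 (3138 barcodes) and 6132 in C1 (943 barcodes). C2 and C1 shared 31 kept barcode sequences, none of them epithelial. The sum of at least 3 was also reached by 60 barcodes of C2 and 64 of C1 that were left out, of which 56 and 61 carried Ptprc. At the edge of the rule, 12 epithelial barcodes of C2 and 9 of C1 had a sum of exactly 3, and 18 of C2 and 15 of C1 met every other condition with a sum of 2. Doublets (more than 1 cell under 1 barcode) were limited only by the rule's leukocyte conditions, and no doublet caller was run.

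The label held for most but not all of the barcodes. Epithelial genes that the rule did not use were far above their level in T cell barcodes: of the 12 on a pan-epithelial list, which includes the junction genes Cdh1 and Cldn7, 8 had at least 20 UMIs in each library's comparison. All 8 were at least 2-fold higher than in T cell barcodes in C2, where 8.92% of 6472 genes were higher and 72.4% lower. In C1 7 were higher and Cdh1 was lower, where 6.39% of 6835 genes were higher and 78.3% lower. T cell barcodes are not pure as a background, since 6.98% of them in C2 and 45.1% in C1 had at least 2 UMIs of the macrophage list. The median log2 ratio of the pan-epithelial list was 6.68 in C2 and 6.61 in C1, while that of all genes was -1.71 and -1.96. Ehf, a transcription factor of epithelia, was at 228 CPM (UMIs per 1000000 UMIs of the group) in epithelial barcodes and 1.86 CPM in T cell barcodes of C2, and at 181 and 0.884 CPM in those of C1. Aqp5, given as a marker of the acinar cells, had UMIs in 16 of 48 barcodes of C2 and 12 of 49 of C1, so that it did not mark the group as a whole. The sums of the leukocyte and endothelium lists were at or near 0. For the leukocyte lists the rule's limits on Ptprc, Cd3 and C1q partly set this in advance. At least 2 UMIs of the NK cell list were present in 8.33% of barcodes of C2 and 0% of C1, and of the macrophage list in 6.25% and 4.08%. The T cell list summed to 10 UMIs in C2 and 1 in C1, the NK cell list to 17 and 4, the macrophage list to 10 and 13 and the endothelium list to 1 and 0, out of 1006130 and 1141164 UMIs in all. B cell and plasma cell genes were the exception and lay in the 4 barcodes described near the end.

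Each barcode was placed in a class by the products that led its UMIs, with thresholds set after the values had been seen, so that class sizes carry no test. Free RNA had to be allowed for, because T cell barcodes of either library also held a median of 36 UMIs of secreted acinar products. In empty barcodes, too shallow to hold a cell but with at least 50 UMIs, the same products were at 257012 CPM in C2 and 350423 CPM in C1. The conditions were taken in turn. A barcode counted as immunoglobulin where the plasma cell list was at least 10% of its UMIs. Otherwise it counted as acinar where the secreted acinar products, less 36 UMIs, were at least 10% and no less than the granular duct list, and was then named Dcpp or Mucl2 by the larger of the 2 products. Of the rest, it counted as Klk where the granular duct list was at least 1%, and then as basal with at least 20 UMIs of the basal list. C2 held 4 Dcpp, 16 Mucl2, 15 Klk, 1 basal and 3 immunoglobulin barcodes with 9 remaining, and C1 held 6, 6, 25, 4 and 1 with 7 remaining. Near the limits, the lowest acinar barcode of C2 was at 15.2% and the highest barcode outside at 14.5%, a Klk barcode in which the granular duct list held more. In C1 the corresponding values were 47.3% and 2.92%. For the granular list 3 barcodes of C2 and 5 of C1 lay between 1% and 3%.

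**Figure D1:**
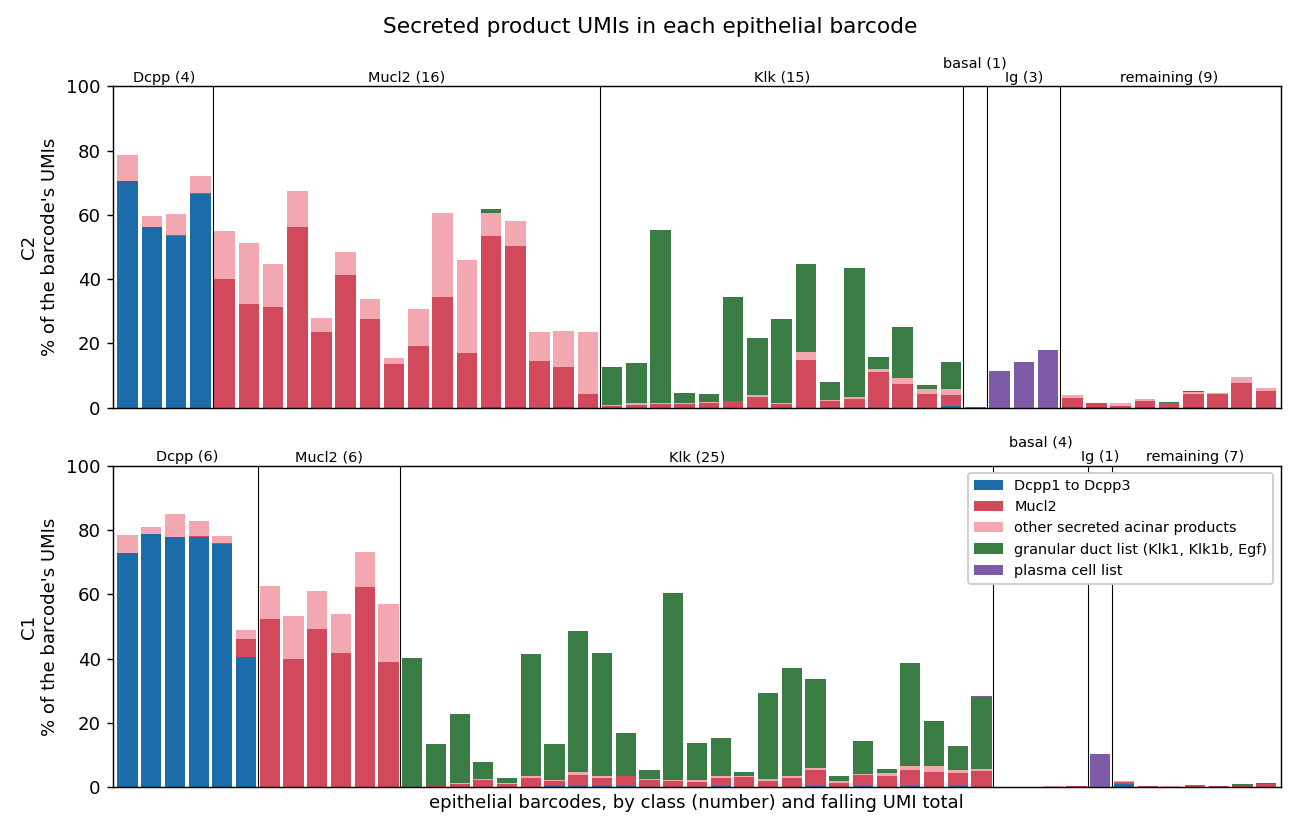
Percent of each epithelial barcode's UMIs (vertical axis) that came from Dcpp1 to Dcpp3, Mucl2, other secreted acinar products, the granular duct list and the plasma cell list, with 1 bar per barcode, C2 above C1, ordered by class and falling depth. Dcpp and Mucl2 products fill different barcodes, and the Klk barcodes hold from 1.38% to 53.9% granular duct UMIs in C2 and from 1.30% to 58.2% in C1.

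The acinar barcodes differed in which product led them. The Dcpp genes encode secreted salivary proteins of demilune cells and form a cluster on chromosome 17, with Dcpp1 at chr17:23880669-23882853, Dcpp2 at chr17:23898722-23900788 and Dcpp3 at chr17:23917419-23919441. Mucl2, a mucin-like salivary protein gene, lies on chromosome 15 at chr15:103895855-103899312. The 100 bases before each start in the RefSeq promoter table (GRCm38.p6, all 4 genes matched) are shown because Dcpp products were highest in some acinar barcodes and Mucl2 in most others. For Dcpp1 and Dcpp3 the gene table's span begins before the promoter table's start, so that the Dcpp1 window lies within that span and the Dcpp3 window partly so. Capitals mark TATAA, searched on both strands.
Dcpp1 (chr17:23880776-23880875, plus strand): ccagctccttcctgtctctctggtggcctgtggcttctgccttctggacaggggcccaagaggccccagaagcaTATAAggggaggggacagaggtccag
Dcpp2 (chr17:23898622-23898721, plus strand): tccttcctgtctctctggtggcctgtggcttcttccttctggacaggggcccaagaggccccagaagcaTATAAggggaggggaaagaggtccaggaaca
Dcpp3 (chr17:23917358-23917457, plus strand): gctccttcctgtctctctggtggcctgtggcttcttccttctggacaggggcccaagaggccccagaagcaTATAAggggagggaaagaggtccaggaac
Mucl2 (chr15:103899313-103899412, minus strand): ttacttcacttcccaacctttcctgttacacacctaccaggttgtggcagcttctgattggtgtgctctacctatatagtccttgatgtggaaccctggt

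The 3 Dcpp windows each held 1 TATAA, beginning 26, 31 and 29 bases before the table's start of Dcpp1, Dcpp2 and Dcpp3, and the Mucl2 window held none in these letters. Of 32851 promoter windows of the same length, 10.2% held the motif on either strand. In global alignments the Dcpp windows were identical to each other at 88.6 to 96.1% of aligned columns and to that of Mucl2 at 46.8 to 48.2%. The Dcpp genes are close paralogs, and the labels do not say how reads were shared among them, so their individual counts are uncertain and their sum is used.

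In the 4 Dcpp barcodes of C2, Dcpp1 to Dcpp3 together made up 70.4%, 56.1%, 53.4% and 66.4% of UMIs. In the 6 of C1 they made up from 40.7% to 78.9%. The lowest was a barcode of 2359 UMIs in which Mucl2 held a further 5.43%, and in the other 9 barcodes Mucl2 held at most 0.416%. By median total this was the deepest class of each library, with 87286.5 UMIs in C2 and 97856 in C1, and it carried 35.2% and 48.3% of all epithelial UMIs.

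Bpifa2, a secreted lipid-binding protein of saliva, had 8603, 706, 3297 and 2782 UMIs in the Dcpp barcodes of C2. In C1 its lowest, median and highest counts were 31, 3469 and 7640. As a level over the class it was at 43482 CPM in C2 and 41842 CPM in C1, a ratio of 1.04. Wfdc18, a small secreted protein of the whey acidic protein family, was at 33595 CPM in C2 and 25317 CPM in C1.

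The Dcpp barcodes of C2 were not alike among themselves. Muc19, a gel-forming mucin, had 1370 and 972 UMIs in 2 of them and 1 and 0 in the others, and Smgc, which shares its locus, had 35 and 18 UMIs in the same 2. In C1 no Dcpp barcode had more than 5 Muc19 UMIs. Mup4, a lipocalin, was also uneven, since 733 of its 779 UMIs in C2 came from 1 barcode, and so was Hspa5, a chaperone of the endoplasmic reticulum, with 135 of 156. Scgb1b27, an androgen-binding protein subunit, was at 11169.9 CPM in C2 and 1492 CPM in C1 (ratio 7.49, 6.94 to 8.08), with 222 to 1691 UMIs a barcode in C2 and 4 to 438 in C1. Aqp5 was at 393 CPM in C2 and 274 CPM in C1 (ratio 1.43, 1.13 to 1.82), and Slc12a2, the chloride-loading cotransporter of acini, at 124 and 121 CPM (ratio 1.02, 0.683 to 1.52). With products, ribosomal RNA-like and mitochondrial genes left out of the total, these 2 ratios were 0.877 and 0.626, so neither direction held under both totals.

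The other acinar barcodes were named for Mucl2, which was above Dcpp in each. In 2 of the 16 of C2 and 0 of the 6 of C1, Prol1, a salivary apomucin, had more UMIs than Mucl2. Mucl2 made up 4.21% to 56.1% of UMIs in the 16 barcodes of C2 and 38.9% to 62.4% in the 6 of C1. The lowest C2 barcode, of 951 UMIs, held 40 Mucl2 UMIs but 182 of Prol1. Median totals were 17168.5 UMIs in C2 and 70926.5 in C1, so the class of C2 included more shallow barcodes, and Gm42418 and AY036118, genes that collect ribosomal RNA reads, had a median of 6.66% of UMIs in C2 and 1.52% in C1.

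Over the class, Mucl2 was at 341919 CPM in C2 and 475706 CPM in C1 (ratio 0.719, 0.714 to 0.724). Its companions were closer: Prol1 was at 63249 CPM in C2 and 57282 CPM in C1, and Car6, a secreted carbonic anhydrase, at 31619 and 32376 CPM. Pip, a secreted salivary protein, was at 25419 CPM in C2 and 29495 CPM in C1. Scgb1b27 and Scgb2b27, subunits of androgen-binding protein, reached 117886 and 54353 CPM in C2 and 135495 and 63523 CPM in C1.

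The fluid-secretion genes of the Mucl2 barcodes differed in their ratios. Aqp5 was at 422 CPM in C2 and 389.7 CPM in C1 (ratio 1.08, 0.864 to 1.36), an interval that includes 1, and the ratio was 0.739 with products, ribosomal RNA-like and mitochondrial genes left out of the total. Slc12a2 was at 597 CPM in C2 and 229 CPM in C1 (ratio 2.61, 2.03 to 3.39, and 1.78 with the other total), and Kcnn4, a potassium channel, at 326 and 181 CPM (ratio 1.80, 1.33 to 2.46). Ano1, the apical chloride channel, had 23 UMIs in C2 and 9 in C1, and its ratio of 2.08 had an interval of 0.926 to 5.10. Pigr, the receptor that carries IgA into saliva, was at 840.0 CPM in C2 and 395 CPM in C1 (ratio 2.12, 1.74 to 2.60). The other total multiplies every ratio of this class by 0.682, those of Kcnn4, Ano1 and Pigr included. The Kcnn4 interval then includes 1.

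The Klk barcodes were 31.25% of the epithelial barcodes of C2 (15 of 48, 18.7 to 46.3%) and 51.0% of those of C1 (25 of 49, 36.3 to 65.6%), although they held only 2.22% and 6.91% of the UMIs. Klk1, tissue kallikrein, at chr7:44225360-44229622 (GRCm38.p6), had a lowest, median and highest count of 6, 252 and 915 UMIs a barcode in C2, and of 6, 184 and 9550 in C1. The ranges overlapped and the medians were of the same order. The highest C1 count belonged to a barcode of 31209 UMIs that held 59.1% of the Klk1 UMIs of all epithelial barcodes of that library, so class levels of C1 lean on it. Klk1 was at 162255 CPM in C2 and 204272 CPM in C1, but without that barcode C1 was at 137679 CPM and the ratio of C2 to C1 was 1.18 (1.13 to 1.23), so the direction rests on 1 barcode.

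The Klk1b paralogs also depended on it. Klk1b26 was at 9449.59 CPM in C2 and 15047 CPM in C1, Klk1b11 at 2777 and 10344 CPM, and Klk1b5 at 2866 and 7251 CPM. Klk1b9 had 10 UMIs in C2 and 589 in C1, of which 422 lay in that barcode. Without it the ratios of C2 to C1 were 0.903 (0.765 to 1.06) for Klk1b26, 0.353 (0.265 to 0.463) for Klk1b11, 0.572 (0.427 to 0.756) for Klk1b5 and 0.128 (0.0602 to 0.241) for Klk1b9. Of the 15 granular duct genes with enough UMIs in this class, 11 were at least 2-fold lower and 0 higher in C2, where 16.4% of 451 genes were lower and 6.87% higher. Without the deepest C1 barcode 4 of 11 were lower and 0 higher, where 13.6% of 323 genes were lower and 2.48% higher, and the summed list was at 185454 CPM in C2 and 175057 CPM in C1. The class was defined on these genes, and they are paralogs whose reads may be shared between copies, so the count is a description. Egf had 0 UMIs in C2 and 33 in C1, 32 of them in 1 barcode.

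Duct genes that the class rule did not use were also present. Fxyd2, a regulator of the sodium pump, had UMIs in all 15 Klk barcodes of C2 and all 25 of C1, at 14734 CPM in C2 and 7555 CPM in C1 (ratio 1.95, 1.70 to 2.23, and 1.39 without the deepest C1 barcode). Tfcp2l1, a transcription factor of ducts, was at 1164 CPM in C2 and 1509 CPM in C1 (ratio 0.772, 0.485 to 1.19), and Krt7, a duct keratin, at 761 and 570.5 CPM, both with intervals that include 1. Without the deepest C1 barcode Krt7 had a ratio of 0.931 (0.494 to 1.68). Ckmt1, the mitochondrial creatine kinase, was at 1254 CPM in C2 and 482 CPM in C1 (ratio 2.60, 1.54 to 4.35). Wfdc2, a secreted antiprotease, was lower in C2, at 582 CPM against 1863 CPM in C1 (ratio 0.312, 0.162 to 0.551). The acinar cell-bound list, which holds Aqp5 and 7 further acinar genes, had 1 UMI in the Klk barcodes of each library.

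The Klk barcodes were shallow, and most held under 1% mitochondrial UMIs. Their median total was 1412 UMIs in C2 and 1470 in C1, and their median mitochondrial share 0% in C2 and 0.0883% in C1, with 14 of 15 and 18 of 25 under 1%. The highest Klk barcode of C1 was at 4.61%. The basal barcode of C2 was at 4.39%, and the basal barcodes of C1 had a median of 2.37%. Low shares were not particular to the Klk class. Medians were 1.10% in C2 and 0.577% in C1 for the Dcpp barcodes and 1.90% and 0.737% for the Mucl2 barcodes. All 3 immunoglobulin barcodes of C2 and the 1 of C1 were under 1%. The part of the low mitochondrial share in the Klk class's other values was not tested. The immediate-early genes Fos and Jun were at 4031 and 4344 CPM in the Klk barcodes of C2 and 4640 and 4652 CPM in those of C1, and Atf3, a stress-response factor, at 1747 and 3448 CPM (ratio 0.507, 0.352 to 0.710).

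**Figure D2:**
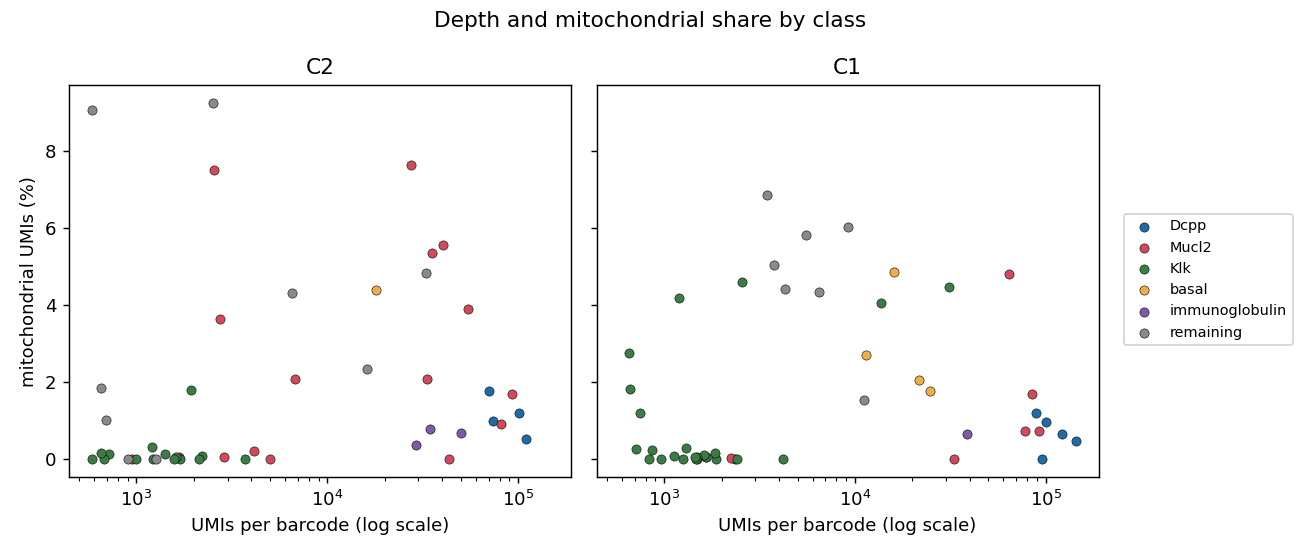
UMIs per barcode (horizontal, log scale) against the percent of UMIs from mitochondrial genes (vertical), 1 point per epithelial barcode, coloured by class, C2 left and C1 right. Most Klk barcodes lie at the lower left, with medians of 1412 and 1470 UMIs, and the Dcpp barcodes at the lower right.

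Barcodes of the basal class were few, and the 1 of C2 held more myoepithelial than basal UMIs. The 4 basal barcodes of C1 had 25, 86, 16 and 21 Krt5 UMIs, 114, 66, 23 and 19 of Krt14, and 59, 152, 18 and 6 of Krt17, and each had 1 to 8 UMIs of Trp63, the transcription factor of basal epithelium. None had Acta2. The 1 basal barcode of C2, of 18089 UMIs, had 3 Krt5, 11 Krt14, 8 Krt17 and 1 Trp63 UMIs, together with 173 of Acta2, 61 of Tagln, 42 of Myh11 and 23 of Cnn1, genes of the contractile apparatus. It had 343 UMIs of the myoepithelial list and 25 of the basal list, so the basal class holds unlike profiles in C2 and C1. It held 96.9% of the myoepithelial list's UMIs in C2, so every myoepithelial level of C2 is the level of that barcode. Dcn, a proteoglycan gene on the fibroblast list, had 21 UMIs in it and 49, 2, 24 and 23 in the basal barcodes of C1.

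Of the 16 remaining barcodes, 3 had Ascl3, a transcription factor of salivary ionocytes, cells rich in proton pumps. A C1 barcode of 6482 UMIs had 9 Foxi1, 5 Ascl3, 5 Atp6v1b1 and 3 Cftr UMIs, and another of 4304 UMIs had 4 Foxi1 and 4 Ascl3. A C2 barcode of 1266 UMIs had 5 Ascl3 and 2 Atp6v1b1 UMIs and no Foxi1. Foxi1 is a further transcription factor of these cells, Atp6v1b1 a proton pump subunit and Cftr a chloride channel. Among the others, 1 C1 barcode had 1756 UMIs of Wfdc18, another had 100 of Clu, a secreted chaperone, and 1 of C2 had 147 of Hp, haptoglobin.

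Against their label, 4 barcodes were led by antibody genes. The 3 of C2 had 50158, 34460 and 29253 UMIs, of which 29471, 11079 and 16628 were immunoglobulin V genes and 3101, 1494 and 2079 Jchain, the joining chain of secreted IgA and IgM. They met the rule with 3, 3 and 2 Epcam UMIs and no Krt8, and the third also had 1 Krt18 UMI. The 1 of C1 had 38807 UMIs, 25530 of V genes and 2143 of Jchain, with 5 Epcam UMIs and neither keratin. Cd79a, a B cell receptor component, had 26, 15 and 21 UMIs in those of C2 and 36 in that of C1. They are kept in the counts of members because the rule admits them, and they have no place in the acinar, duct and basal values given by class.

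Taking all epithelial barcodes, more met the duct cell-bound list, of 10 genes, than the acinar cell-bound list, of 8, in both libraries. Acinar barcodes that met the duct list are counted in this. At least 2 UMIs of the duct cell-bound list were present in 79.2% of barcodes of C2 (65.0 to 89.5%) and 93.9% of C1 (83.1 to 98.7%), where T cell barcodes had 0.829% and 2.65%. For the acinar cell-bound list the shares were 54.2% in C2 (39.2 to 68.6%) and 38.8% in C1 (25.2 to 53.8%), with 10.2% and 10.8% in T cell barcodes. These shares include the antibody-led barcodes, which had 6, 5 and 2 UMIs of the list in C2 and 6 in C1. In T cell barcodes Kcnn4 gave 63.7 of the list's 81.0 CPM in C2 and 59.95 of 69.8 CPM in C1. Acinar barcodes also met the duct list, making up 16 of the 38 barcodes of C2 and 10 of the 46 of C1 that did so, and Elf5, a transcription factor, gave 52 of their 97 duct UMIs in C2 and 58 of 115 in C1. Intervals of C2 and C1 overlapped for both lists. With every barcode thinned to 1000 UMIs, which left out 10 members of C2 and 7 of C1, duct shares were 36.8% and 57.1% and acinar shares 28.9% and 21.4%. T cell barcodes thinned in the same way had duct shares of 0.0320% in C2 and 0.106% in C1 and acinar shares of 0.480% and 0.531%.

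The basal list had at least 2 UMIs in 16.7% of barcodes of C2 and 20.4% of C1, against 2.58% and 1.59% of T cell barcodes. This order turned in 3 of the alternatives, given with the dependence on processing. The summed basal level was 51.7 CPM in C2 and 649 CPM in C1, with 48.1% and 47.5% of those UMIs in 1 barcode of each library. The myoepithelial list had at least 2 UMIs in 8.33% of C2 and 6.12% of C1, and the ionocyte list in 10.4% and 8.16%. The ionocyte share is not a share of ionocytes, since Ascl3 had UMIs in 1 barcode of C2 and 2 of C1, and Foxi1 in 0 and 2. The other C2 barcodes met the list on Atp6v1b1 or Cftr.

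**Figure D3:**
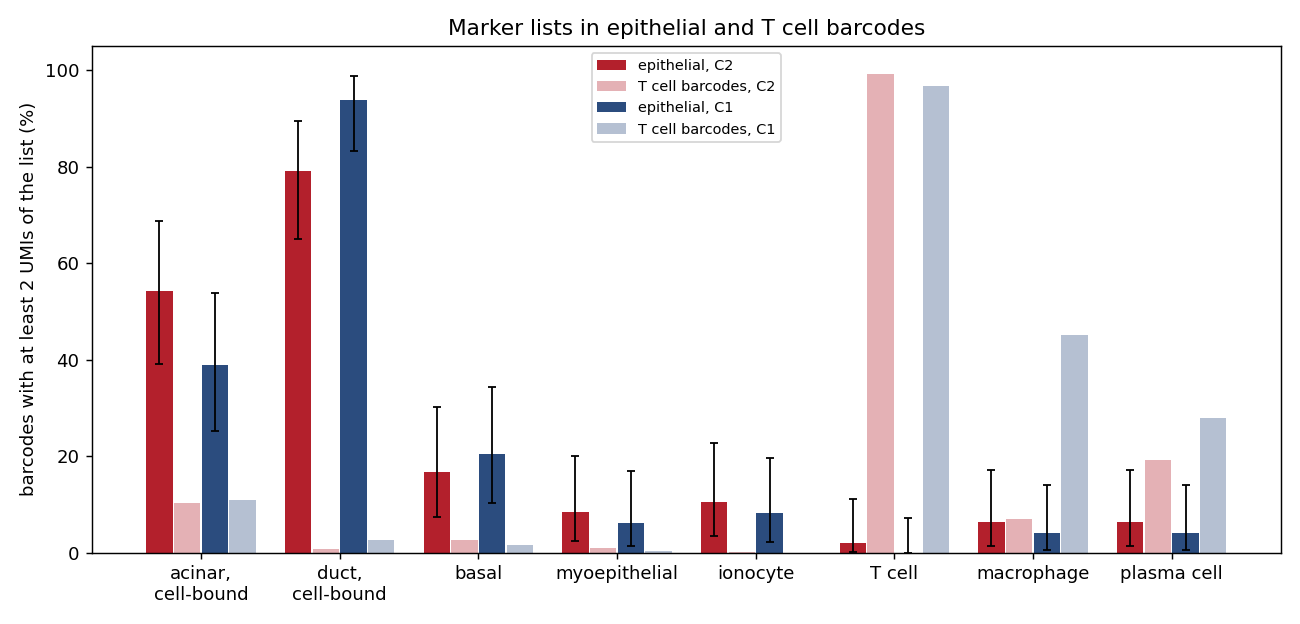
Percent of barcodes with at least 2 UMIs of each list, for epithelial barcodes (dark) and T cell barcodes (pale) of C2 and C1, with exact 95% intervals for counting error as bars. The duct cell-bound share is 79.2% in C2 and 93.9% in C1, against 0.829% and 2.65% in T cell barcodes.

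The summed MHC class I list was higher in C2 than in C1 in the Mucl2, the Dcpp and the Klk barcodes. MHC class I molecules show peptides from inside the cell to CD8 T cells, and interferon raises them together with guanylate-binding and immunity-related GTPases. In the Mucl2 barcodes the MHC class I list, of 9 genes, had a lowest, median and highest level of 363, 2796 and 7361 CPM a barcode in C2, and of 0, 169 and 426 CPM in C1. Of the 16 C2 barcodes, 13 lay above the highest of C1. Over the class the level was 2653 CPM in C2 and 248.5 CPM in C1 (ratio 10.7, 8.59 to 13.4). Among barcodes of at least 30000 UMIs the 7 of C2 spanned 767 to 3883 CPM and the 5 of C1 121 to 426 CPM, with no overlap.

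All 8 MHC class I genes with enough UMIs in the Mucl2 barcodes were at least 2-fold higher in C2, where 28.9% of 798 genes were higher and 1.00% lower, and the list's median log2 ratio was 3.50 beside 0.39 over all genes. B2m, the light chain, had UMIs in 13 of 16 barcodes of C2 and 1 of 6 of C1, at 631 CPM in C2 and 11.3 CPM in C1. H2-K1, a heavy chain, was at 1148 CPM in C2 and 98.8 CPM in C1 (ratio 11.6, 8.24 to 16.9), and H2-D1 at 505 and 104 CPM (ratio 4.83, 3.40 to 7.05). Psmb8, an immunoproteasome subunit, had 48 UMIs in C2 and 0 in C1.

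All 4 MHC class II genes with enough UMIs were also higher in C2 in the Mucl2 barcodes. Cd74, the invariant chain, was at 449.9 CPM in C2 and 19.8 CPM in C1 (ratio 22.8, 10.8 to 57.4), and H2-Ab1 had 35 UMIs in C2 and 0 in C1. Of the interferon response list, 5 of 6 genes were higher. Igtp, an immunity-related GTPase, had 75 UMIs in C2 and 1 in C1, Iigp1, of the same family, 51 and 0, and Gbp2, a guanylate-binding protein, 42 and 0. Ifi27l2a was the exception, at 1065 CPM in C2 and 771 CPM in C1 (ratio 1.38, 1.19 to 1.61). The list as a whole was at 1919 CPM in C2 and 833 CPM in C1 (ratio 2.30, 2.01 to 2.64), with 12 of 16 C2 barcodes above the highest of C1. The ratio was 3.60 without the highest barcode of each library, 4.28 as a mean of barcode levels and 1.57 with products, ribosomal RNA-like and mitochondrial genes left out of the total.

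In the Dcpp barcodes the MHC class I level was 311, 777, 4543 and 500.2 CPM in C2, and its lowest, median and highest were 0, 144 and 307 CPM in C1. The groups did not overlap, though by little at the edge, and 1 C2 barcode stood far above the rest. Over the Dcpp class MHC class I was at 1368 CPM in C2 and 190.4 CPM in C1 (ratio 7.18, 5.81 to 8.96), 3.52 without the highest barcode of each library, 2.66 with no C1q UMI allowed and 15.1 without the deepest 5% of barcodes. The interferon list was at 640.2, 309, 3748 and 100.04 CPM in C2, and from 0 to 106.97 CPM with a median of 49.5 CPM in C1. Its ratio was 17.7 (12.4 to 25.9), 7.91 without the highest barcodes, 6.51 with no C1q UMI and 41.0 without the deepest 5%. Here 3 of 3 MHC class I genes and 4 of 4 interferon genes were higher in C2, where 27.5% of 840 genes were higher and 1.79% lower. These counts lean on the barcode at 4543 CPM, which held 337 MHC class I and 278 interferon UMIs. That barcode carried C1q UMIs, so the setting with no C1q UMI leaves it out, together with a C1 barcode. It also held 76 MHC class II UMIs, where the other C2 barcodes held 0, 1 and 2, and it had 0 leukocyte list UMIs. The source of its C1q UMIs was not tested. The other C2 barcodes held 34, 78 and 35 MHC class I and 70, 31 and 7 interferon UMIs. Iigp1 and Gbp2 had 38 and 75 UMIs in it and at most 1 in any other, while Ifi27l2a had 13 in it and 67, 24 and 3 in the others.

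The Klk barcodes gave few UMIs for these lists. MHC class I was at 5688 CPM in C2 (127 UMIs) and 1572 CPM in C1 (124 UMIs), a ratio of 3.62 (2.80 to 4.67). The barcodes overlapped widely, from 0 to 17103 CPM in C2 and from 0 to 7869 CPM in C1, with 3 of 15 C2 barcodes above the highest of C1. The interferon list was at 3314 CPM in C2 and 709.9 CPM in C1 (74 and 56 UMIs), and no C2 barcode was above the highest of C1. Its ratio of 4.67 was 2.87 with up to 20% mitochondrial UMIs and 3.10 with at most 2 leukocyte list UMIs, and it was also 3.10 without the deepest C1 barcode, where the MHC class I ratio was 3.43. In the remaining barcodes MHC class I was at 15260.1 CPM in C2 and 5425 CPM in C1 (ratio 2.81, 2.44 to 3.26).

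**Figure D4:**
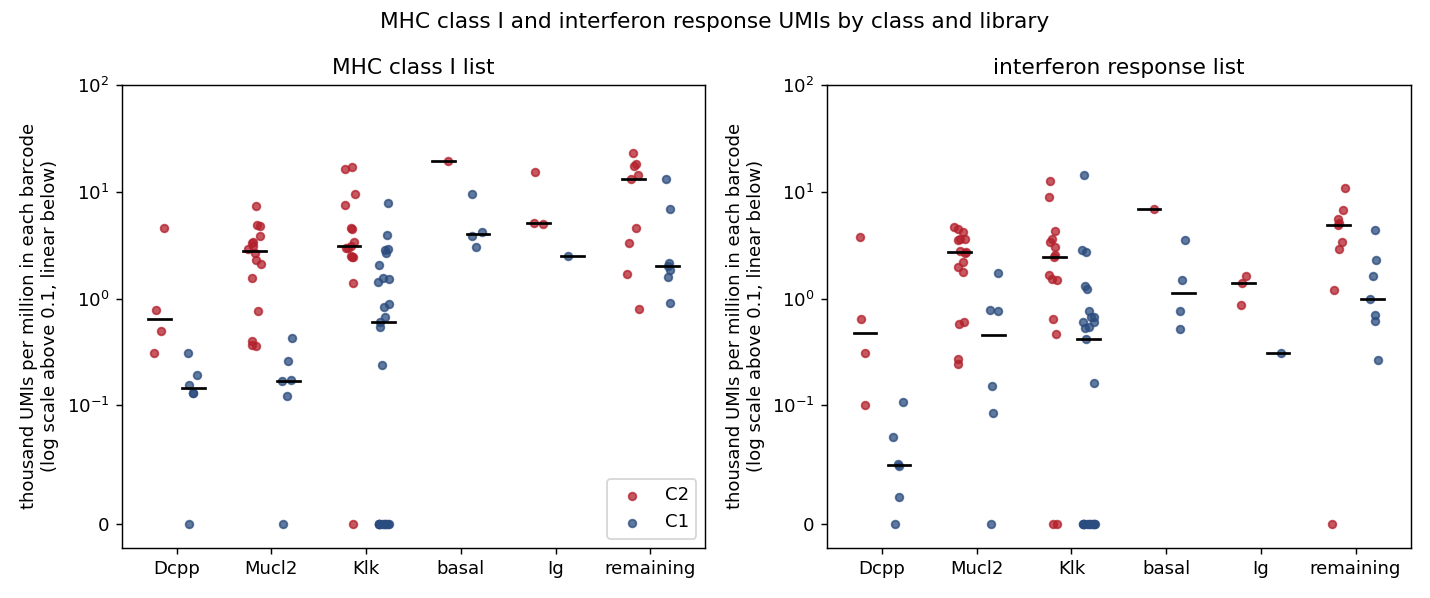
Level of the MHC class I and interferon response lists (units of 1000 CPM, log scale above 0.1) in each barcode by class, C2 (red) left of C1 (blue), with medians as black bars. In the Mucl2 class the MHC class I medians are 2796 CPM in C2 and 169 CPM in C1, and in the Klk class the points overlap.

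Several measures differed between the libraries beside these levels, and their part in the result was not tested. T cell barcodes held MHC class I at 12486 CPM in C2 and 10049 CPM in C1 and the interferon list at 2366 and 1842 CPM, and empty barcodes held MHC class I at 1856 CPM in C2 and 966 CPM in C1. Scaled by the 36 free acinar UMIs of a T cell barcode, free RNA would bring 0.260 MHC class I UMIs to a barcode in C2 and 0.0992 in C1. Leukocyte list UMIs summed to 4 over the Mucl2 barcodes of C2 and 0 over those of C1, and to 1 and 4 over the Dcpp barcodes. Secreted products took different shares of the UMIs, and with products, ribosomal RNA-like and mitochondrial genes left out of the total the MHC class I ratio of the Mucl2 barcodes was 7.28.

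Early response genes summed over all epithelial barcodes were lower in C2, and this sum also follows the class sizes. The list of 13, with Fos, Jun and Egr1, was at 4314 CPM over the epithelial barcodes of C2 and 7248 CPM over those of C1, and at 19228 and 39159 CPM in the remaining barcodes (ratio 0.491, 0.456 to 0.529). In the Mucl2 barcodes it was at 1288 CPM in C2 and 1158 CPM in C1 (ratio 1.11, 0.977 to 1.27), an interval that includes 1, and the ratio was 0.759 with products, ribosomal RNA-like and mitochondrial genes left out of the total. The ratio was 0.948 (0.877 to 1.03) in the Dcpp, 0.913 (0.825 to 1.01) in the basal and 0.770 (0.691 to 0.856) in the Klk barcodes. With those genes left out of the total it was 0.580 in the Dcpp, 0.939 in the basal and 0.708 in the Klk barcodes. The size of the Dcpp difference thus depended on the total. Without the deepest C1 barcode the Klk ratio was 0.636. The basal ratio sets the 1 contractile barcode of C2 against the 4 basal barcodes of C1. T cell barcodes were lower in C2, at 5160.4 CPM against 17124 CPM in C1, and a link to the epithelial values was not tested.

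Of the secretory pathway genes 6 of 8 were at least 2-fold higher in C2 in the Dcpp barcodes, where 27.5% of 840 genes were. The summed list had a ratio of 1.96 (1.74 to 2.22), or 1.20 with products, ribosomal RNA-like and mitochondrial genes left out of the total, and 317 of its 602 UMIs in C2 lay in 1 barcode. Without the highest barcode of each library it was at 1124 CPM in C2 and 865 CPM in C1. Creb3l1, a membrane-bound transcription factor, was at 251 CPM in C2 and 121 CPM in C1 (ratio 2.07, 1.49 to 2.89). Xbp1, a regulator of the unfolded protein response, was at 345 and 312 CPM (ratio 1.11, 0.869 to 1.40). The other total multiplies every ratio of the Dcpp class by 0.611, and the Creb3l1 interval then includes 1. In the Mucl2 barcodes 1 of 5 genes of the list was higher, where 28.9% of 798 genes were.

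Over all epithelial barcodes, 15.4% of 3331 genes were at least 2-fold higher in C2 and 4.35% lower, with a median log2 ratio of 0.21. MHC class I had 8 of 8 genes higher, MHC class II 5 of 5 and the interferon list 13 of 14, while the basal list had 5 of 5 lower and the early response list 6 of 13 lower. These counts include the antibody-led barcodes. Those of C2 held 254, 524 and 147 of 3994 MHC class I UMIs and 226, 97 and 45 of 1573 MHC class II UMIs. That of C1 held 96 of 1055 and 80 of 205. The 5 of 5 myoepithelial genes higher in C2 rest on the single barcode described above, and sums over all members also follow the class sizes. The basal count rests on few barcodes, since Krt5, Krt14 and Krt17 each had UMIs in only 4 barcodes of C1. Of the 10 genes with the largest C2 to C1 ratio, 6 were immunoglobulin V genes of the antibody-led barcodes, and the others were Ly6c2, Muc19, Acta2 and Iigp1. Among the 10 with the largest ratio the other way, 5 were Klk1b paralogs, 3 were Krt5, Krt14 and Krt17, and 2 were V genes.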

How the data were processed

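Per the labels' protocols, CD45-positive cells of submandibular glands and draining nodes were sorted for single-cell RNA and receptor libraries. The protocols describe a BD Rhapsody workflow and the series' design text names 10x, and the files hold 16-base barcodes. The deposited values are raw UMI counts per gene and barcode, not normalized, for 32285 genes. The build mm10 and the tools STAR 2.7.10a and Cell Ranger 6.1.2 are named per the submitters' processing notes, and the file headers give Cell Ranger format version 4. Receptor libraries were not analysed here, and values of some listed genes are not reported here.

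Barcodes were kept at 500 UMIs, 300 genes and 10% mitochondrial UMIs. C2 held 44798843 UMIs and C1 48439860. Counts were summed over barcodes and divided by their total (CPM). Ratios of C2 to C1 have exact conditional 95% intervals, levels exact Poisson and shares exact Clopper-Pearson intervals, which cover counting error only. A gene was called at 2-fold with at least 20 UMIs in the higher library, a count of 0 being set to 3. No gene-wise test was made. Shares were also taken with barcodes thinned to 1000 UMIs. The script was tested on simulated data. Python 3.11.15, numpy 2.4.6, scipy 1.17.1, pandas 2.3.3, matplotlib 3.10.9 and Biopython 1.88 were used.

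The members, lists and class thresholds were chosen with earlier results of these data known. Named genes were, per list, up to 4 of highest mean CPM and the largest ratio with at least 50 UMIs, then the 10 largest ratios each way with at least 100 UMIs and the 15 largest over T cell barcodes with at least 50, which gave 125 genes. Prol1, Car6, Pip, Trp63, Cnn1, Smgc, Clu, Hp, Igtp, Egf, Cdh1, Gm42418 and AY036118 lie outside that rule and were chosen after their values were seen. Alternatives covered the depth, mitochondrial, marker, C1q and leukocyte limits, thinning and subtraction of T cell levels. Others, added after seeing the data, were the mean of barcode CPM, another denominator, and leaving out immunoglobulin barcodes, the highest barcodes, the deepest Klk barcode of C1 or barcodes under 30000 UMIs.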

Additional observations from a re-analysis of the deposited data

Results flagged for a closer look

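Outside the 2 libraries described, the same rule took 4 of 8532 kept barcodes of C3 (0.0469%) and 0 of 5957 of C4, where 3 barcodes would be 0.0504% and the exact 95% upper limit is 0.0619%. The 4 drew attention as signal in a library that the comparisons did not use. They had 55732, 49847, 38934 and 34799 UMIs, of which 65.9%, 62.2%, 71.4% and 63.9% were immunoglobulin V genes, with 10, 12, 3 and 8 Epcam UMIs and no Krt8 or Krt18.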

How the results depend on the processing

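No paired analysis was possible because the libraries carry no replicate numbers and no test was made. The MHC class I and interferon ratios of the Dcpp, Mucl2 and Klk barcodes kept their direction under each alternative run for them, but other comparisons of C2 with C1 did not. Without the deepest Klk barcode of C1 the log2 ratio of Klk1 was 0.24 and that of Krt7 -0.10. Under the rule as given C2 had fewer members than C1 by count (48 and 49) and more by share of kept barcodes (0.947% and 0.873%). Members numbered 66 in C2 and 64 in C1 with a marker sum of at least 2, which reversed the order by count but not by share. With a sum of at least 6 they were 0.395% of kept barcodes in C2 and 0.516% in C1, which reversed the order by share but not by count. The basal share was then 40.0% in C2 and 31.0% in C1. The basal share was 18.2% in C2 and 17.4% in C1 with at most 2 leukocyte list UMIs, and 19.2% and 18.97% with up to 20% mitochondrial UMIs. With a marker sum of at least 6, members numbered 20 in C2 and 29 in C1, and at least 1 Epcam UMI left 30 in C2. With a marker sum of at least 6 the acinar share was 80.0% in C2 and 55.2% in C1, the duct share 95% and 100%, and the myoepithelial share of C2 20.0%. With an Epcam UMI the acinar share of C1 was 54.3%. Thinned to 1000 UMIs, acinar shares were 28.9% in C2 and 21.4% in C1, duct shares 36.8% and 57.1%, the basal share of C2 2.63% and the myoepithelial share of C1 0%.

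The log2 ratio of MHC class I in Dcpp barcodes, 2.84, was 1.41 with no C1q UMI, 3.91 without the 5% deepest barcodes, 3.33 as a mean of barcode CPM, 2.13 with the other denominator and 1.81 without the highest barcodes. Their interferon ratio, 4.15, was 2.704, 5.36, 3.43 (other denominator) and 2.98 (without the highest barcodes). For Mucl2 barcodes, MHC class I at 3.42 was 3.85 as a mean of barcode CPM, 2.86 with the other denominator and 3.78 without the highest, and the interferon list at 1.20 was 2.10, 0.65 and 1.85 under the same 3. The interferon ratio of Klk barcodes, 2.22, was 1.52 with up to 20% mitochondrial UMIs, 1.63 with at most 2 leukocyte list UMIs, 1.63 without the deepest Klk barcode of C1 and 1.49 as a mean of barcode CPM. The cause of these shifts was not tested. Of 283 list and gene levels, the mean of barcode CPM moved 211 by more than 1.5 times, subtraction of T cell levels 111 and the leukocyte limit 73. The Klk barcodes had 127 MHC class I UMIs in C2 and 124 in C1, which limits their ratio.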

Other observations

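Some deep barcodes held almost no mitochondrial UMIs. A Mucl2 barcode of C2 with 43139 UMIs was at 0.0116%, and another with 5011 UMIs at 0%. In C1 a Dcpp barcode with 95942 UMIs was at 0.0135% and a Mucl2 barcode with 32925 UMIs at 0%. At the other end, Gm42418 and AY036118 made up 56.2% of the UMIs of a Mucl2 barcode of C2 and 63.1% of a remaining barcode of C1.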
